A study of Mus musculus with 2 samples.

Results

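The genes described here encode 5 parts of the phagocyte NADPH oxidase, Cybb, Cyba, Ncf1, Ncf4 and Rac2, and 4 antioxidant enzymes or enzyme subunits, Sod2, Txnrd1, Gclm and Srxn1. They were taken as a list of names, drawn up with earlier results of these data known, and are 9 of the 32285 features of the count matrices. CD45+ cells, which are leukocytes, were taken from mouse hearts by magnetic sorting and profiled by droplet single-cell RNA sequencing of the 3′ ends of transcripts. A library from mice without a spleen (splenectomy) was compared with one from mice that had sham surgery, to ask how immune cells in the injured heart differ when the spleen is absent. Both groups were male wild-type C57BL/6J mice 8 weeks old, and both had the left anterior descending coronary artery closed for 60 min and reopened for 24 h before the heart was taken, so an uninjured heart is not part of the comparison. Each group is 1 library, and how many hearts it pools is not stated in the sources. The groups could not be tested against each other for that reason, and no difference given here has a replicate check.

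The phagocyte oxidase moves electrons from NADPH across a membrane to oxygen and so makes superoxide, which neutrophils and macrophages use against microbes and which can also injure tissue that is being reperfused. Its membrane core, cytochrome b558, is made of the products of Cybb and Cyba; on activation it is joined by cytosolic proteins, among them those of Ncf1 and Ncf4, and by a Rac GTPase. Superoxide and the hydrogen peroxide made from it are removed by superoxide dismutases, by enzymes that draw on thioredoxin, and by enzymes that draw on glutathione, and many of the genes for these enzymes are targets of the transcription factor NRF2, the product of Nfe2l2, which the adaptor KEAP1 holds back.

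The splenectomy library held 5087 cell barcodes and 48024013 unique molecular identifiers (UMIs, each standing for 1 captured transcript), and the sham library held 6210 barcodes and 53512625 UMIs; 9 barcode sequences occurred in both. After filtering, 4805 splenectomy and 5838 sham cells were kept, with a median of 7265 and 4972 UMIs. Ptprc, which encodes CD45, had a UMI in 79.4% of splenectomy and 79.6% of sham cells. Clustering without the 9 genes gave 24 clusters. They were named from fixed markers, with "-like" marking a name that rests on transcripts alone, and 8 classes held at least 50 cells in both libraries. These were neutrophil-like (1589 splenectomy and 2275 sham cells), monocyte-like (1222 and 1132), macrophage-like (998 and 1242), nonclassical monocyte-like (67 and 128), conventional dendritic cell-like (217 and 265), B cell-like (111 and 111), T cell-like (74 and 72) and endothelial cell-like (110 and 109). Levels are given as CPM, a gene's UMIs scaled by all UMIs of the class, with exact Poisson 95% intervals, which cover counting error only and not the difference between hearts.

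Among the membrane subunits, Cybb on chrX:9435252-9487771 (minus strand, mm10) encodes gp91phox, the subunit that carries the electrons. It had its highest level in nonclassical monocyte-like cells, the patrolling type of monocyte, with 1086 CPM (996 to 1183) in the splenectomy library and 881 CPM (822 to 943) in the sham library. Monocyte-like cells followed with 414 and 377 CPM and macrophage-like cells with 311 and 231 CPM. Dendritic cell-like cells had 190.5 and 155 CPM, and neutrophil-like cells 87.5 CPM (80.3 to 95.1) and 80.9 CPM (74.8 to 87.3). In the splenectomy library no 2 neighbours in this order had overlapping intervals until the lowest classes, whereas in the sham library B cell-like cells, at 257 CPM, overlapped macrophage-like cells. Cybb was thus far lower per UMI in neutrophil-like cells than in any of the other 4 myeloid classes, in both libraries. A Cybb UMI was found in 16.9% of splenectomy and 13.9% of sham neutrophil-like cells, whose median depths were 3745 and 3321 UMIs. Endothelial cell-like cells, which are no phagocytes and had a similar depth (3452 and 3026 UMIs), had one in 6.36% and 11%. When each cell was thinned to 2000 UMIs, which left out 114 splenectomy and 227 sham neutrophil-like cells, the shares were 11.3% and 10.1% in neutrophil-like cells and 2.82% and 8.11% in endothelial cell-like cells. The exact binomial intervals were 9.69% to 13.0% and 8.84% to 11.5% in neutrophil-like cells. They were 0.343% to 9.81% and 3.03% to 16.8% in endothelial cell-like cells, from 71 and 74 thinned cells. The thinned shares of the 2 classes thus overlapped within counting error. Their levels did not overlap: endothelial cell-like cells had 13.3 CPM (6.38 to 24.5) and 35.1 CPM (22.3 to 52.7), below neutrophil-like cells in both libraries.

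Cyba on chr8:122424776-122432930 (minus strand), which encodes p22phox, the partner that stabilises gp91phox and anchors the cytosolic subunits, followed another order. Its level was 2479 and 2366 CPM in monocyte-like cells, 2170.4 and 2161 CPM in macrophage-like cells, and 2022 and 2211 CPM in nonclassical monocyte-like cells. Neutrophil-like cells had 1093 and 899 CPM. The lowest of the 8 classes was endothelial cell-like, with 304.5 and 549.5 CPM. The Cyba UMIs per Cybb UMI therefore differed between classes, with 12.5 (11.5 to 13.7) and 11.1 (10.3 to 12.1) in neutrophil-like cells. They were 5.98 and 6.27 in monocyte-like cells, and 1.86 and 2.51 in nonclassical monocyte-like cells. Dendritic cell-like cells had 9.31 (8.55 to 10.1) and 11 (10.1 to 12.1), and macrophage-like cells 6.98 and 9.35. The dendritic cell-like interval thus overlapped that of neutrophil-like cells in the sham library and lay below it in the splenectomy library. Because 3′ counts of different genes are captured with different efficiency, these ratios describe how classes differ and not how many molecules of each subunit a cell holds.

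Per UMI of the class, the cytosolic subunits were highest in neutrophil-like cells. Ncf1 on chr5:134220053-134229625 (minus strand) encodes p47phox, the organiser that carries the cytosolic subunits to the membrane. It had 615 and 664 CPM in neutrophil-like cells, against 144 and 164 CPM in nonclassical monocyte-like cells, the next class in both libraries. Monocyte-like cells had 103 and 114 CPM and macrophage-like cells 109 and 102 CPM. Ncf4 on chr15:78244801-78262580 (plus strand), which encodes p40phox, a subunit that binds phosphoinositides on phagosomes, had 432 and 482 CPM in neutrophil-like cells, 275 and 267 CPM in monocyte-like cells and 149 and 145 CPM in macrophage-like cells. The 2 subunits of the same cytosolic complex thus parted between classes. The Ncf1 UMIs per Ncf4 UMI were 1.42 (1.36 to 1.5) and 1.38 (1.32 to 1.44) in neutrophil-like cells. In monocyte-like cells they were 0.374 (0.354 to 0.396) and 0.426 (0.402 to 0.451). The other myeloid classes were also lower than neutrophil-like cells, with 0.526 and 0.451 in nonclassical monocyte-like, 0.443 and 0.489 in dendritic cell-like and 0.732 and 0.699 in macrophage-like cells. Ncf1 overlaps an exon of Gtf2ird2 on the other strand, and Cyba overlaps the predicted gene Gm20388 there.

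Plasmacytoid dendritic cell-like cells, the interferon-producing type, had too few cells to compare (33 and 17) but held an unusual set of subunits. They had 480.5 CPM (412 to 557) and 454 CPM (361 to 563) of Cybb and 186 and 127 CPM of Ncf1. Ncf4 was found as 2 UMIs in the splenectomy and 1 UMI in the sham cells.

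Rac2 on chr15:78559167-78572783 (minus strand) encodes the blood-cell Rac GTPase that switches the oxidase on and also drives actin movement, so it is not an oxidase gene alone. It was highest among the compared classes in neutrophil-like cells, with 798 and 887 CPM. T cell-like cells had 520.4 and 531 CPM and B cell-like cells 435 and 417 CPM, and the intervals of these lymphoid classes overlapped in both libraries. Monocyte-like cells had 256 and 284 CPM and macrophage-like cells 176 and 179.8 CPM. Natural killer cell-like cells (30 and 65 cells) had 746 and 754 CPM of Rac2 but 1 and 4 UMIs of Cybb. In splenectomy T cell-like cells Cybb was found as 0 of 345874 UMIs, which allows up to 8.67 CPM.

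**Figure D1:**
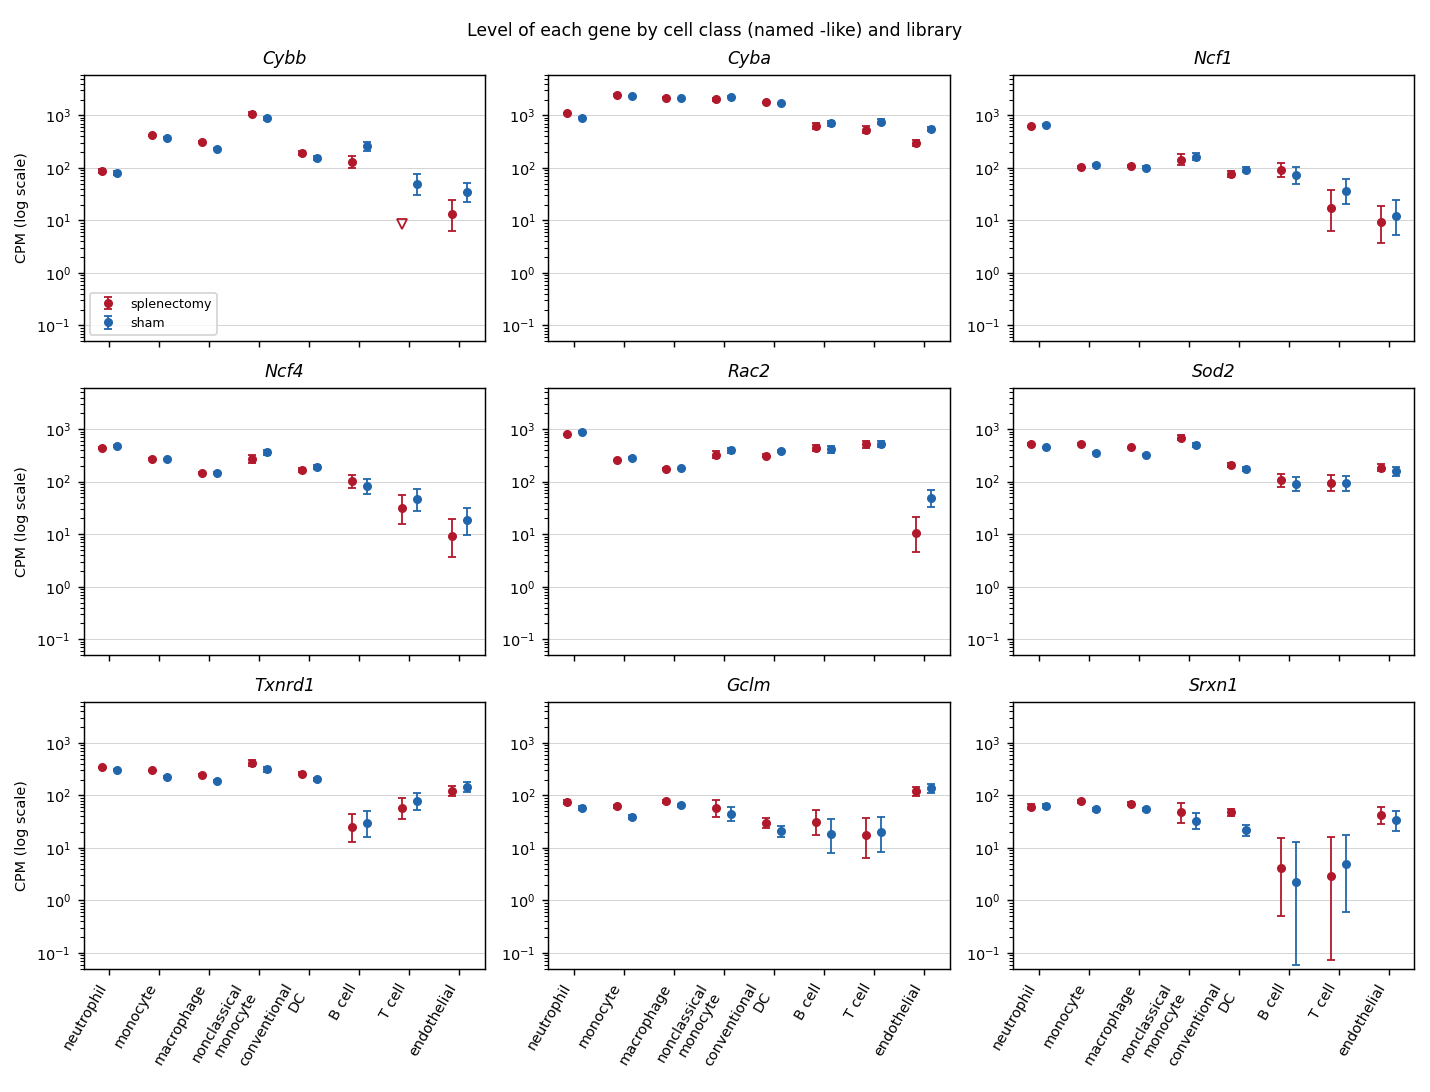
CPM of each of the 9 genes (log axis) in the 8 compared classes, with the splenectomy library in red left of the sham library in blue; bars are exact Poisson 95% intervals and the open triangle marks the limit that a count of 0 allows. Cybb peaks in nonclassical monocyte-like cells (1086 and 881 CPM), Ncf1 in neutrophil-like cells (615 and 664 CPM), and Gclm in endothelial cell-like cells (119.7 and 137 CPM).

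Of the antioxidant genes, Sod2 on chr17:13006846-13040063 (plus strand) encodes the manganese superoxide dismutase of mitochondria, which turns superoxide into hydrogen peroxide. It was highest in nonclassical monocyte-like cells, with 684 and 492 CPM, and had 517 and 449 CPM in neutrophil-like, 529 and 351 CPM in monocyte-like and 452 and 326 CPM in macrophage-like cells. The sham intervals of nonclassical monocyte-like (448 to 539 CPM) and neutrophil-like cells (435 to 464 CPM) overlapped. Dendritic cell-like cells had 208 and 176 CPM, and B cell-like cells had 106 and 91.7 CPM. In the sham library neutrophil-like cells lay above monocyte-like cells beyond the counting intervals, and in the splenectomy library the intervals of these classes overlapped.

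Txnrd1 on chr10:82833951-82897712 (plus strand) encodes the cytosolic thioredoxin reductase, which keeps thioredoxin reduced with electrons from NADPH. Its level was 412 and 314 CPM in nonclassical monocyte-like cells, 341 and 312 CPM in neutrophil-like, 303 and 226 CPM in monocyte-like, 258 and 202.5 CPM in dendritic cell-like and 250.3 and 187 CPM in macrophage-like cells. In B cell-like cells it was 25.4 and 29.8 CPM, from 12 and 13 UMIs.

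Gclm on chr3:122245557-122270732 (plus strand) encodes the modifier subunit of glutamate-cysteine ligase, the enzyme of the first step of glutathione synthesis. It was highest in endothelial cell-like cells, with 119.7 CPM (96.2 to 147) and 137 CPM (110.5 to 169), of which the 5 richest cells held 40.0% and 48.9% of the 90 UMIs in each library. After thinning, a Gclm UMI was in 14.1% (6.97% to 24.4%) and 12.2% (5.71% to 21.8%) of these cells, which overlaps the 13.2% and 10% of macrophage-like cells. Macrophage-like cells had 77.1 and 64.5 CPM, neutrophil-like cells 75.3 and 58.3 CPM, monocyte-like cells 61.7 and 39.1 CPM, and dendritic cell-like cells 30.1 and 20.7 CPM. Srxn1 on chr2:152105516-152111376 (plus strand) encodes sulfiredoxin, which repairs overoxidised peroxiredoxins. It had 76.9 and 54.2 CPM in monocyte-like, 69.8 and 55.0 CPM in macrophage-like and 61.4 and 62.5 CPM in neutrophil-like cells, whose intervals overlapped in order in both libraries. Dendritic cell-like cells had 47.7 and 21.8 CPM. In B cell-like cells it was found as 2 and 1 UMIs.

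Set between the libraries, the antioxidant genes were higher after splenectomy in monocyte-like and macrophage-like cells, while the oxidase genes other than Cybb differed little there. Differences are given as the log2 ratio of CPM, splenectomy over sham, with the exact 95% interval of a ratio of Poisson counts. A gene was counted as apart where it was at least 1.5-fold higher or lower (0.58 on the log2 scale) and had at least 50 UMIs in the library where it was higher. This is a rule of size and not a test.

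In monocyte-like cells all 4 antioxidant genes had intervals above 0. Sod2 was higher by 0.59 (0.54 to 0.64), from 8666 splenectomy and 5305 sham UMIs. Gclm was higher by 0.66 (0.51 to 0.81), from 1012 and 591 UMIs. Srxn1 was higher by 0.50 (0.38 to 0.63) and Txnrd1 by 0.42 (0.36 to 0.48). Sod2 and Gclm passed 1.5-fold, so 2 of 9 genes were counted higher against 2.78% of the 8668 genes measured in these cells, and 0 of 9 were counted lower against 4.36%. The median of the 4 antioxidant genes was 0.54 and that of the 5 oxidase genes 0.04, beside a median of -0.00 over all genes measured. Gclm was past 1.5-fold in 17 of 17 alternatives of the processing, and Sod2, which lay close to the limit, in 10 of 17. These counts include the alternatives that change only the minimum of UMIs, which cannot move a ratio. Of the 8668 genes measured, 2.18% had a higher ratio than Gclm and 2.75% a higher ratio than Sod2. The oxidase genes ran from -0.15 (-0.21 to -0.09) for Rac2 to 0.14 (0.08 to 0.19) for Cybb.

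In macrophage-like cells the 4 antioxidant genes were above 0 as well. Sod2 was higher by 0.47 (0.42 to 0.52), from 6856 splenectomy and 5906 sham UMIs, Txnrd1 by 0.42 (0.35 to 0.49), Srxn1 by 0.35 (0.22 to 0.47) and Gclm by 0.26 (0.14 to 0.38). Cybb was the oxidase gene that stood with them, at 0.43 (0.37 to 0.49). Cyba, Ncf1, Ncf4 and Rac2 lay between -0.03 and 0.10. None of the 9 genes reached 1.5-fold in either direction, where 1.85% of 9203 genes were that much higher and 2.55% that much lower. The median was 0.39 for the antioxidant and 0.03 for the oxidase genes, beside -0.02 over all genes measured.

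Neutrophil-like cells showed less. Cyba was higher by 0.28 (0.23 to 0.33), Gclm by 0.37 (0.18 to 0.56), Sod2 by 0.20 (0.13 to 0.27) and Txnrd1 by 0.13 (0.04 to 0.21). Ncf1, Ncf4 and Rac2 were lower, at -0.11 (-0.17 to -0.05), -0.16 (-0.23 to -0.09) and -0.15 (-0.20 to -0.10). The intervals of Cybb (-0.05 to 0.28) and Srxn1 (-0.22 to 0.17) held 0. Again 0 of 9 genes were 1.5-fold higher or lower, against 3.21% and 7.04% of 6079 genes, and the median over all genes was -0.08, below 0 as well. The Ncf1 UMIs per Cyba UMI, a ratio that no scaling changes, were 0.563 (0.541 to 0.585) after splenectomy and 0.739 (0.713 to 0.765) after sham surgery.

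**Figure D2:**
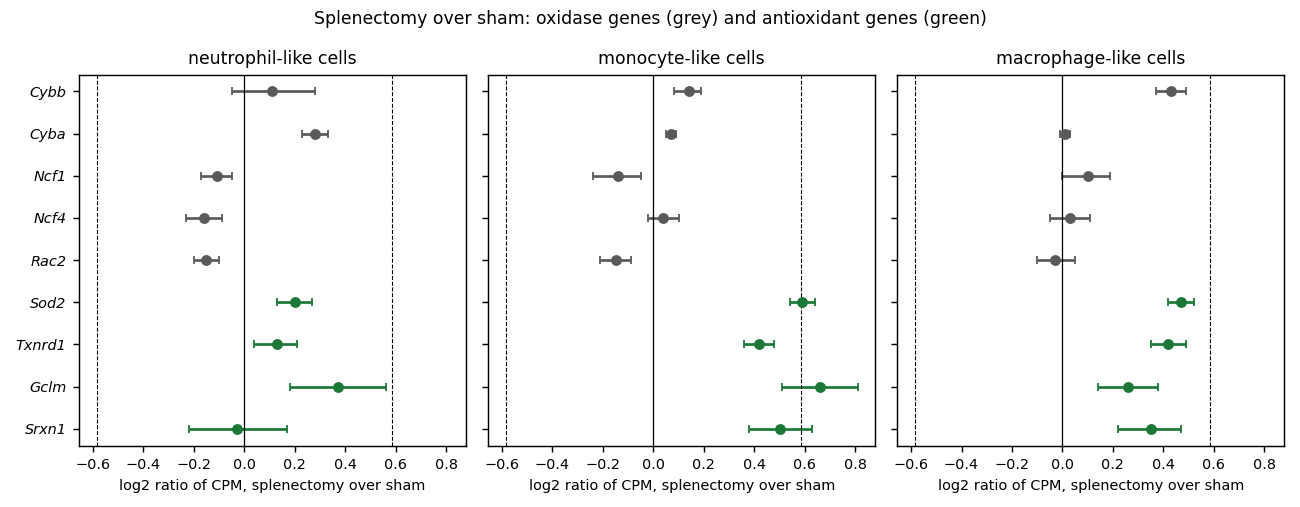
Log2 ratio of CPM, splenectomy over sham (horizontal axis), of the 9 genes in the 3 large classes, with oxidase genes in grey, antioxidant genes in green, exact 95% intervals of counting error as bars and dashed lines at 1.5-fold. In monocyte-like cells the 4 antioxidant genes lie between 0.42 and 0.66 and the 5 oxidase genes between -0.15 and 0.14.

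**Figure D3:**
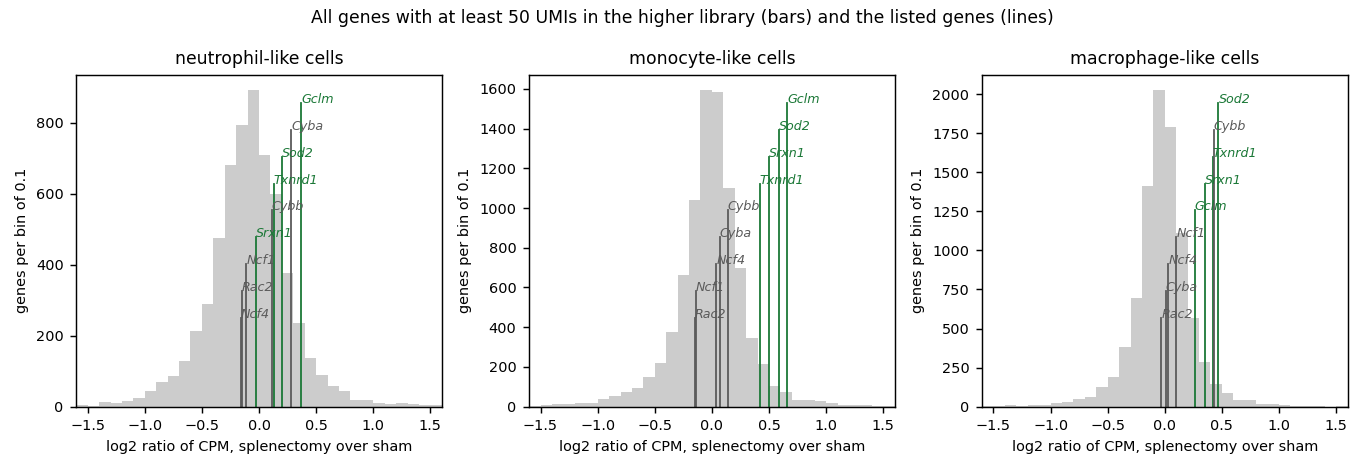
Number of genes per bin of 0.1 in the log2 ratio of CPM, splenectomy over sham, for all genes with at least 50 UMIs in the higher library (grey bars), with lines for the 9 genes (antioxidant in green, oxidase in dark grey; line heights only separate the names). In monocyte-like cells 2.75% of the 8668 genes had a higher ratio than Sod2 and 26.0% a higher ratio than Cybb.

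The classes are mixtures of clusters, and the clusters were held in different shares by the libraries. Of monocyte-like cells, the cluster led by Il6, Areg and F10 held 47.4% after splenectomy and 22.0% after sham surgery, and the cluster led by Ms4a4c, Aif1 and Cfb held 30.6% and 63.0%. Sod2 had 731 and 567 CPM in the Il6 cluster and 318 and 288 CPM in the Ms4a4c cluster, so a monocyte-like cell's cluster went with a larger difference in Sod2 than its library did. When the libraries were clustered apart, the 2 classes held other cells, and Sod2 was at 0.93 in monocyte-like and 0.06 in macrophage-like cells; over both classes together it was 0.53 then, against 0.54 (0.51 to 0.58) with common clusters. Within each of the 3 monocyte-like clusters Sod2 was still higher after splenectomy, by 0.15 to 0.37, and the mean of these cluster ratios was 0.26, against 0.59 for the class. Txnrd1 was higher by 0.17 to 0.26, Gclm by 0.24 to 1.08 and Srxn1 by 0.24 to 0.58 in the same 3 clusters. The widest of these, Gclm in the Mgst1 and Chil3 cluster, was 66.3 against 31.4 CPM. The counting intervals were above 0 in 3 of 3 clusters for Sod2, Txnrd1 and Srxn1 and in 2 for Gclm. In the Il6 cluster Gclm was at 0.24 (-0.01 to 0.48).

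Cybb behaved otherwise in monocyte-like cells. It was highest in the Mgst1 and Chil3 cluster, which also had the classical monocyte marker Ly6c2 among its leading genes, with 723 CPM after splenectomy and 859 CPM after sham surgery. It was lower after splenectomy there, at -0.25, and higher in the Il6 cluster, at 0.17. The small positive ratio of the whole class was therefore not shared by its clusters.

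In the 5 macrophage-like clusters Sod2, Txnrd1 and Gclm had ratios above 0 in 5 of 5 and Srxn1 in 4 of 5. Their intervals were above 0 in 5 clusters for Sod2, 4 for Txnrd1, 1 for Gclm and 3 for Srxn1, and in the cluster led by C1qb these genes other than Sod2 had fewer than 50 UMIs in both libraries. Srxn1 was lower in the cluster led by Ccl24, with 75.6 and 99.6 CPM. Sod2 was highest in that cluster, with 898 CPM in splenectomy and 659 CPM in sham cells, and had 277 and 209 CPM in the resident-type cluster led by Lyve1, Cbr2 and Folr2. The difference of Cybb was uneven. It had 662 and 512 CPM in the Ccl24 cluster, which held 15.5% of splenectomy and 5.15% of sham macrophage-like cells, but 131 and 133 CPM in the largest cluster, led by Fabp5, Spp1 and Arg1. The mean of the cluster ratios was 0.25 for Cybb and 0.61 for Sod2, against 0.43 and 0.47 for the class; the value for Sod2 includes 1.49 in a cluster of low depth (55 and 120 cells, led by C1qb).

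Sod2 also differed between neutrophil-like clusters. It had 149.7 and 145 CPM in the cluster led by Nt5e and Ppp1r3b, 557 and 539 CPM in the cluster led by Il23a and Csf1, and 596 and 606 CPM in the cluster led by Retnlg. In the cluster led by Ifit1 it had 555.5 and 421 CPM, a ratio of 0.40 (0.11 to 0.68), the 1 cluster of the 4 whose interval lay above 0. The Nt5e cluster held 15.7% of splenectomy and 23.7% of sham neutrophil-like cells, and the Retnlg cluster 44.3% and 15.5%. Gclm had a ratio above 0 in 4 of 4 clusters with at least 50 cells in both libraries, by 0.28 to 1.72. The ratio of 1.72 (0.76 to 2.68) was in the Ifit1 cluster, whose leading genes respond to interferon and which held 61 and 232 cells. It rests on 20 and 21 UMIs, and that of Srxn1 there, 1.42 (0.64 to 2.18), on 27 and 35, all under the minimum of 50 UMIs.

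**Figure D4:**
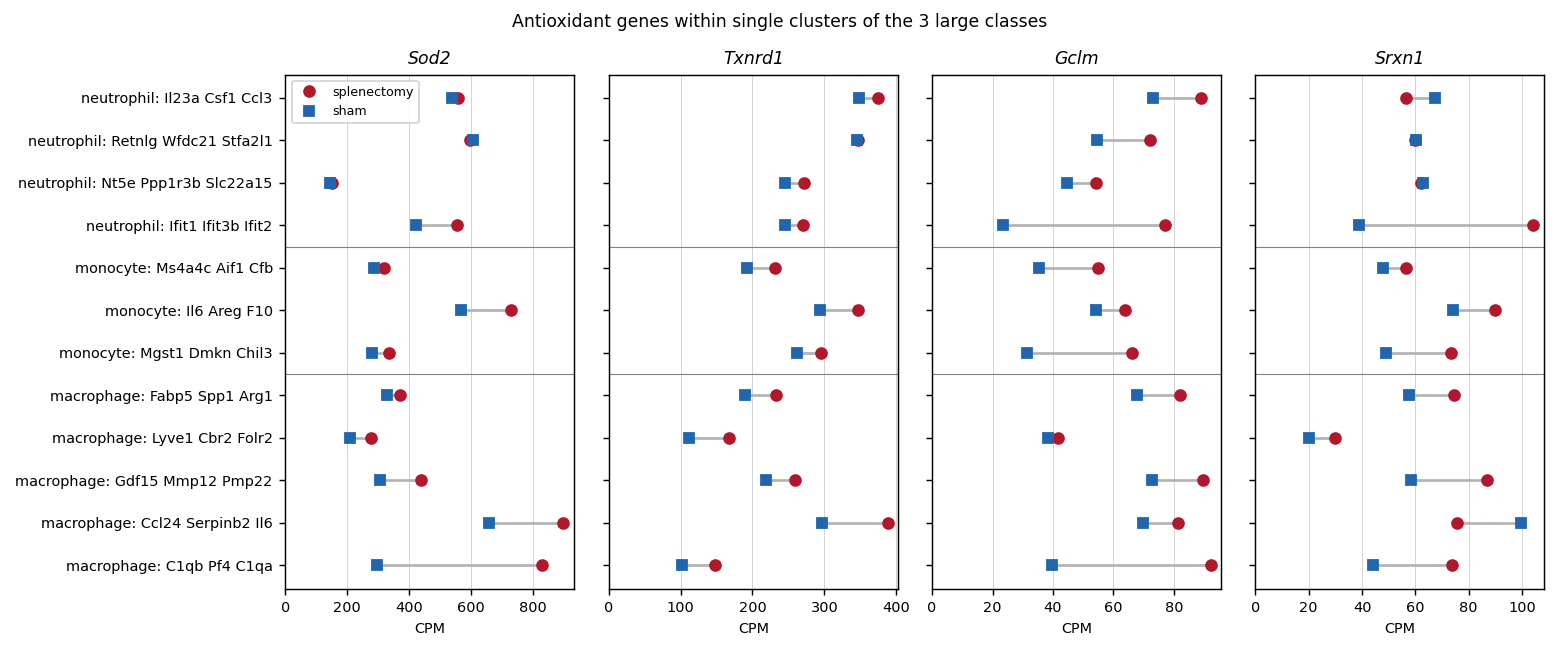
CPM of the 4 antioxidant genes (horizontal axes, from 0) in each cluster of the neutrophil-, monocyte- and macrophage-like classes with at least 50 cells in both libraries, named by its leading genes; red circles are splenectomy and blue squares sham. In all 3 monocyte-like clusters the red circle lies to the right for every gene, and Sod2 is near 150 CPM in both libraries in the Nt5e cluster of neutrophil-like cells.

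Depth was looked at within classes. When the cells of a class were put into 4 bins by UMIs, with the same limits in both libraries, Sod2 was higher after splenectomy in 4 of 4 bins of monocyte-like cells (0.41 to 0.82) and of macrophage-like cells (0.37 to 0.63). Txnrd1 (0.31 to 0.57 and 0.34 to 0.64), Gclm (0.37 to 0.79 and 0.11 to 0.93) and Srxn1 (0.29 to 0.85 and 0.21 to 0.49) were also higher in 4 of 4 bins of both classes. In neutrophil-like cells Sod2 (-0.09 to 0.44), Txnrd1 (-0.12 to 0.51) and Gclm (-0.06 to 1.13) were above 0 in 3 of 4 bins, and Cybb in monocyte-like cells was too (-0.01 to 0.23).

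Counted by cells, the difference appeared as more cells in which several antioxidant transcripts were found together. After thinning to 2000 UMIs, which left out 12 splenectomy and 15 sham monocyte-like cells, none of the 4 antioxidant genes was found in 25.3% of splenectomy (22.9% to 27.8%) and 32.5% of sham (29.8% to 35.3%) monocyte-like cells. Exactly 2 of the 4 were found in 30% (27.4% to 32.7%) and 20.2% (17.9% to 22.7%). In macrophage-like cells, of which 48 and 103 were left out, none was found in 29.1% and 35.3%, and exactly 2 in 24.7% and 16.7%. The oxidase genes did not part in this way: the mean number found was 2.42 and 2.46 of 5 in monocyte-like and 2.05 and 2.01 in macrophage-like cells. Srxn1 had a UMI in 12.5% of thinned splenectomy and 8.42% of thinned sham monocyte-like cells. In thinned B cell-like cells, taken as a measure of background, it was in 1% and 1%, the lowest share of the 4 genes. Sod2 was in 13% and 10% of these B cell-like cells, against 54.4% and 46% of monocyte-like cells. Txnrd1 was in 3% and 4%, against 41.2% and 34.3%. Gclm was in 7% (2.86% to 13.9%) and 4% (1.10% to 9.93%), against 9.67% (8.06% to 11.5%) and 5.55% (4.28% to 7.06%). The Gclm intervals of the 2 classes thus overlapped in both libraries. Without thinning, a Srxn1 UMI was in 48.4% and 40.9% of monocyte-like cells (median depth 12665 and 12857 UMIs) and in 1.80% and 0.901% of B cell-like cells (3689 and 3491 UMIs).

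**Figure D5:**
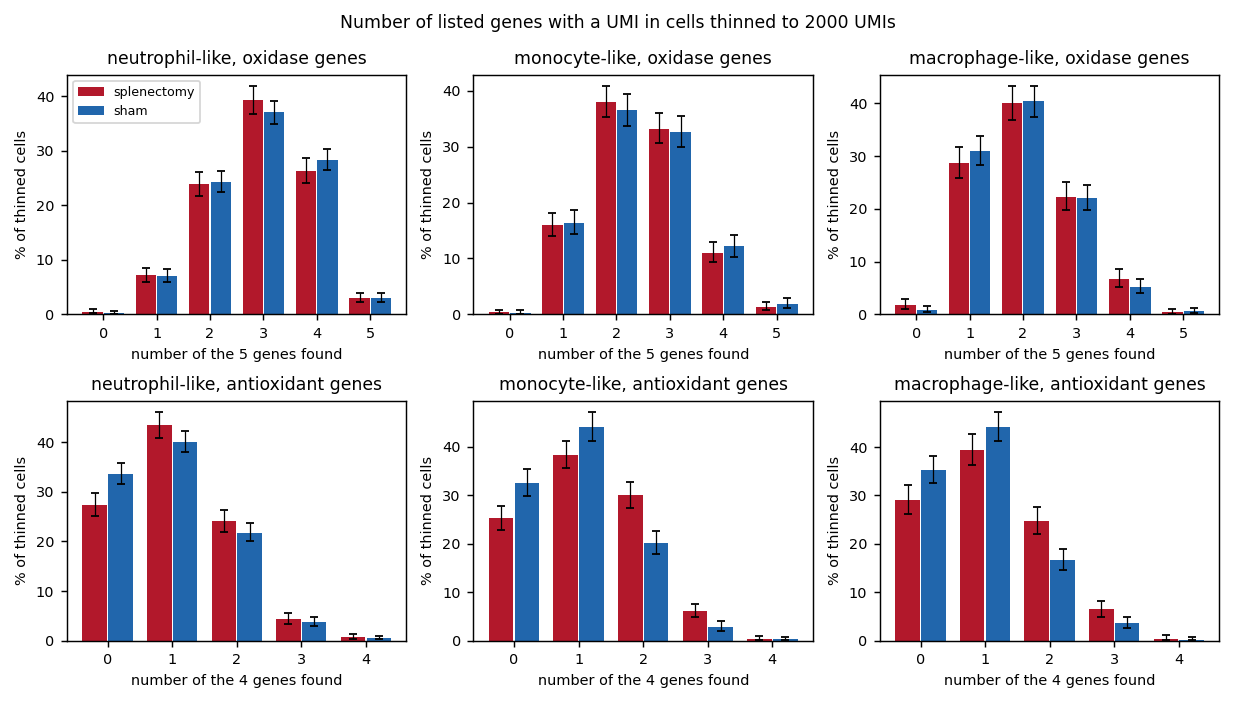
Share of cells (vertical axes, %) by the number of oxidase genes (top row, of 5) or antioxidant genes (bottom row, of 4) with a UMI, after thinning each cell to 2000 UMIs; red bars are splenectomy, blue bars sham, and error bars exact binomial 95% intervals. Monocyte-like cells with 2 antioxidant genes made up 30% after splenectomy and 20.2% after sham surgery.

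The summed level of neutrophil markers was also higher after splenectomy in monocyte-like and macrophage-like cells. The neutrophil markers summed to 3710 CPM in splenectomy and 1585 CPM in sham monocyte-like cells, with 4 of the 12 measured markers at least 1.5-fold higher and 1 lower, and none of the 13 at 0. In macrophage-like cells they summed to 1342 and 995 CPM, with 4 of 12 higher and 1 lower. Monocyte markers in macrophage-like cells summed to 6437 and 5491 CPM, with 4 of 12 higher and 3 lower. Which cells this marker RNA came from, and its part in the antioxidant differences, was not tested. In splenectomy neutrophil-like cells Sod2 (517 CPM) was near its level in monocyte-like cells (529 CPM) and above that in macrophage-like cells (452 CPM). Txnrd1 (341 CPM) was above both (303 and 250.3 CPM), Gclm (75.3 CPM) above monocyte-like cells (61.7 CPM), and Srxn1 (61.4 CPM) below both (76.9 and 69.8 CPM).

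The smaller classes gave 3 further genes past 1.5-fold. In conventional dendritic cell-like cells Srxn1 was higher by 1.13 (0.72 to 1.54), with 47.7 and 21.8 CPM from 149 and 77 UMIs in 67 of 217 and 55 of 265 cells. It was 1 of 9 genes counted higher against 2.67% of 5465 genes, and 0 of 9 were lower against 3.64%. The 5 cells with the most Srxn1 held 43 of the 149 and 16 of the 77 UMIs. The 4 antioxidant genes all had intervals above 0 here, from 0.24 for Sod2, while Ncf1 and Rac2 were at -0.30 each (-0.55 to -0.05 and -0.42 to -0.18). Macrophage markers summed to 1272 and 1033 CPM in these cells, with 4 of 11 measured markers higher and none lower, and neutrophil markers to 589 and 1088 CPM, with 2 of 10 higher and 6 lower. Monocyte markers summed to 2786 and 2977 CPM, with 6 of 11 higher and 3 lower; the part of these markers in the result was not tested.

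In nonclassical monocyte-like cells Sod2 was higher by 0.48 (0.27 to 0.68), Txnrd1 by 0.39 (0.13 to 0.66) and Cybb by 0.30 (0.14 to 0.46), and Ncf4 was lower, at -0.41 (-0.71 to -0.11). Gclm and Srxn1 had too few UMIs to be counted. Of the 7 genes measured, 0 were 1.5-fold higher or lower, against 2.83% and 8.35% of 2575 genes. Neutrophil markers summed to 1453 and 3207 CPM, with 6 of 9 measured markers lower and 2 of the 13 at 0 in the splenectomy cells; the part of this RNA was not tested.

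Among B cell-like cells, which can also use this oxidase at their surface, Cybb was lower after splenectomy, with 129 CPM (98.6 to 166) against 257 CPM (211.5 to 309), a log2 ratio of -0.99 (-1.47 to -0.53). The counts were 61 UMIs in 37 of 111 cells and 112 UMIs in 51 of 111 cells, and the 5 cells with the most held 21 and 39 of them. After thinning, a Cybb UMI was in 20% (12.7% to 29.2%) and 37.0% (27.6% to 47.2%) of cells. This was 1 of 4 measured genes counted lower against 2.22% of 1261 genes, with 0 of 4 higher against 4.60%. Cyba (-0.17), Rac2 (0.06) and Sod2 (0.20) had intervals that held 0. Macrophage markers summed to 1403 and 1839 CPM, monocyte markers to 1166 and 1504 CPM and neutrophil markers to 2529 and 883 CPM (2 of 3 measured higher and 1 lower) in these cells, while B cell markers summed to 11508 and 11598 CPM; the part of the myeloid RNA was not tested.

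In T cell-like cells Cybb was found as 0 and 20 UMIs, and 17 of the 20 were in 1 sham cell. Macrophage markers there summed to 272 and 1560 CPM, with 3 of 3 measured markers lower. Of the 2 genes with enough UMIs, Cyba was at -0.52 (-0.79 to -0.25) and Rac2 at -0.03 (-0.32 to 0.26), so 0 were counted, against 5.15% of 1068 genes higher and 15.5% lower.

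Endothelial cell-like cells, which passed the CD45 selection in small numbers, had Cyba at 304.5 CPM (266 to 347) and 549.5 CPM (494 to 609), a log2 ratio of -0.85 (-1.10 to -0.61). Cyba was 1 of the 4 measured genes counted lower, against 7.08% of 2570 genes, and 0 of 4 were higher, against 8.95%. The 5 richest cells held 96 of 229 and 152 of 360 Cyba UMIs. Rac2, a blood-cell gene, was found as 8 and 32 UMIs. Neutrophil markers summed to 610 and 1713 CPM in these cells, with 3 of 4 measured markers lower and 1 higher, and endothelial markers to 11840 and 12208 CPM; the part of leukocyte RNA in the Cyba ratio was not tested. Sod2 (0.23), Txnrd1 (-0.26) and Gclm (-0.20) had intervals that held 0.

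The remaining genes of these pathways were described from 7 lists of 98 genes. Of 5 other parts of the phagocyte oxidase, 5 were measured in each large class. Over all genes, 3.21%, 2.78% and 1.85% were 1.5-fold higher in neutrophil-, monocyte- and macrophage-like cells, and 7.04%, 4.36% and 2.55% were lower. The 1 part that was apart was Hvcn1, in monocyte-like cells. Hvcn1 encodes the proton channel that balances the charge the oxidase moves, and it had 3.78 and 2.32 CPM there (0.71, 0.09 to 1.35). Rac1, a Rac GTPase found in most cell types, lay within 0.01 of 0 in all 3 classes. Cybc1, a chaperone of the membrane core, was at -0.34, -0.18 and -0.36 in neutrophil-, monocyte- and macrophage-like cells. Of 9 genes of other NADPH oxidases and their partners, 0 reached 50 UMIs in any of the 3 classes.

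Among Rac and oxidase activators and inhibitors, 1 of 19 measured genes was higher in neutrophil-like cells, 1 of 21 in monocyte-like cells and 1 of 21 in macrophage-like cells, beside 3.21%, 2.78% and 1.85% of all genes, and in each case it was Fpr1, the receptor for formyl peptides that triggers the oxidase. Fpr1 had 396 and 242 CPM in neutrophil-like cells (0.71, 0.62 to 0.79), 14.2 and 7.54 CPM in monocyte-like cells and 14.8 and 6.73 CPM in macrophage-like cells. Fpr1 was also a leading gene of the Retnlg cluster of neutrophil-like cells, and the neutrophil markers in the other 2 classes moved the same way, as given above. The 1 gene counted lower was Arhgap25, a Rac GTPase-activating protein, with 14.3 and 27.9 CPM in monocyte-like cells (-0.96, -1.19 to -0.72).

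Genes of the glutathione list were also apart. In monocyte-like cells 1 of 11 measured genes was higher and 0 lower, in macrophage-like cells 3 and 0 of 11, and in neutrophil-like cells 2 and 1 of 10. Over all genes the shares higher and lower were 2.78% and 4.36%, 1.85% and 2.55%, and 3.21% and 7.04% in these classes. The cystine importer Slc7a11, which brings in the cysteine that limits glutathione synthesis, had 683 and 336 CPM in monocyte-like cells (1.02, 0.98 to 1.07) and 327 and 194.5 CPM in macrophage-like cells (0.75, 0.69 to 0.81). In neutrophil-like cells it was at 2273 and 2076 CPM (0.13), above its level in the other 2 classes, and what neutrophil RNA adds to those classes was not tested. Gsr, the glutathione reductase, had 86.2 and 45.4 CPM in macrophage-like cells (0.92, 0.80 to 1.05). The third gene there was Mgst1, a microsomal glutathione transferase named after its values were seen, with 21.6 and 13.6 CPM. Gclc, the catalytic partner of Gclm, was higher by 0.27 (0.06 to 0.47) in monocyte-like and 0.37 (0.20 to 0.55) in macrophage-like cells. In neutrophil-like cells it was lower, with 11.9 and 18.4 CPM (-0.63, -1.05 to -0.22), opposite in sign to Gclm. There Ggt1, which breaks down glutathione outside cells, was higher by 1.37 and the exporter Abcc1 by 0.69.

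The thioredoxin list had 0 genes apart of 8, 10 and 10 measured in neutrophil-, monocyte- and macrophage-like cells. Over all genes in these classes, 3.21%, 2.78% and 1.85% were higher and 7.04%, 4.36% and 2.55% lower. Txn1, the thioredoxin that Txnrd1 reduces, was at -0.46 (-0.51 to -0.42), 0.13 and 0.03, and Prdx1, a peroxiredoxin, at 0.07, 0.01 and 0.07. Of the list for removal of superoxide and peroxide, Prdx2 was lower in neutrophil-like cells (9.33 and 14.1 CPM) and Gpx3 higher in macrophage-like cells (6.66 and 4.08 CPM). These were 1 of 7 and 1 of 11 measured genes, beside 7.04% of all genes lower and 1.85% higher in the same classes. In monocyte-like cells 0 of 10 were apart. The cytosolic dismutase Sod1 was at -0.53, -0.13 and -0.05 and the catalase gene Cat at -0.00 and -0.23 in monocyte-like and macrophage-like cells. The mitochondrial dismutase was thus the one of this pair with a higher level after splenectomy.

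Of the regulators and other targets of NRF2, 0 of 17, 0 of 19 and 1 of 19 measured genes were higher, beside 3.21%, 2.78% and 1.85% of all genes. None was lower, beside 7.04%, 4.36% and 2.55%. The 1 gene counted higher was Osgin1 in macrophage-like cells (6.79 and 4.41 CPM). Nfe2l2 itself was at -0.05 in neutrophil-like, 0.15 (0.10 to 0.20) in monocyte-like and 0.01 in macrophage-like cells, and Keap1 at -0.50 (-0.77 to -0.24) in monocyte-like and -0.16 in macrophage-like cells. Hmox1, which encodes heme oxygenase 1, was higher by 0.24, 0.26 and 0.12, without reaching 1.5-fold. Nqo1 had too few UMIs in all 3 classes. The list's median was 0.10, 0.10 and -0.02, beside -0.08, 0.00 and -0.02 over all genes.

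The promoters of the antioxidant genes are shown because 4 of 4 were higher together in monocyte-like and macrophage-like cells. Windows of 300 bases, from 250 before to 50 after a transcript's start, were given for 7 of the 9 genes in 9 windows, from RefSeq on GRCm38.p6. They were searched on both strands for TGACNNNGC or TGAGNNNGC, the core of the antioxidant response element that NRF2 binds. The first is chr10:82858956-82859255 (plus strand) of Txnrd1, 1 of its 3 windows, the second chr3:122245307-122245606 (plus strand) of Gclm and the third chr2:152105274-152105573 (plus strand) of Srxn1. Capitals mark the matches; a match on the minus strand appears as its reverse complement.
Txnrd1: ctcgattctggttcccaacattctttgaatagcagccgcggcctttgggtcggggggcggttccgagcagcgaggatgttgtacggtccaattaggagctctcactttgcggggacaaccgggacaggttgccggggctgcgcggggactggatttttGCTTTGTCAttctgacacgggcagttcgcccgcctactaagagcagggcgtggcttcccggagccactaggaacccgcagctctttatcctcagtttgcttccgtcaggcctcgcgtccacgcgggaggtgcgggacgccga
Gclm: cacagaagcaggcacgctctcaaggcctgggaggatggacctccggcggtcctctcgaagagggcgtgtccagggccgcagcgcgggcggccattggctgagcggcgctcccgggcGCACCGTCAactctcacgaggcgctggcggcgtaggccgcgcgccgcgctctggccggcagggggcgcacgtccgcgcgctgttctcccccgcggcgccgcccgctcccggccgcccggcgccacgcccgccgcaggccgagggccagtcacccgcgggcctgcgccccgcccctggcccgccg
Srxn1: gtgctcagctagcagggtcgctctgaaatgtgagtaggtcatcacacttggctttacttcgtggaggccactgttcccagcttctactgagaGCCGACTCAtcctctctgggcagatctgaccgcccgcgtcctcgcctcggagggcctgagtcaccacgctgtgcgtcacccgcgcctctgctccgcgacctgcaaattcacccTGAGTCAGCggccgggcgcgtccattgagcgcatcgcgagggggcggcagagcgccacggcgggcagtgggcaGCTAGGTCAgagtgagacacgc
The core was found 92 bases before the start in Txnrd1, 134 before it in Gclm, and 158 before, 45 before and 28 after it in Srxn1. The match at 45 bases, TGAGTCAGC, is on the plus strand and the other 4 are on the minus strand. Sod2 had no match in its window. Of the oxidase genes, Cybb, Cyba and Ncf1 had none, so 3 of 4 antioxidant genes and 0 of 3 oxidase genes with a window held the core. The letters were chosen after these windows had been seen, so this split is no test. The core also occurred in 27.8% of all 32851 windows of this length, and in windows of 8314 of 27025 genes. A match is therefore common and describes letters only. The letters GAGGAAGT, a form of the site of the myeloid factor PU.1, were in 0 of the 9 windows and in 3.20% of all windows.

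Across 34 sums of UMIs (17 clusters of the named classes in each of the 2 libraries), the genes whose log2(CPM + 10) ran most like each of the 9 were looked for among 6263 genes. The points share libraries, cell depth and cell lineage, so these values describe and do not test. Ncf4 ran with Tpd52 (Pearson r = 0.93) and Skap2 (0.92). Ncf1 was nearest to Mcl1, Tlr13 and Lpcat2 (0.95 each), and Rac2 to Sla (0.94), Gmfg and Stk17b (0.93 each). Cyba was nearest to Lgals3 (0.94), Pitpna and Capza2 (0.92 each), and Cybb to Ptprj (0.85), Lyz2 and Clec4a1 (0.83 each).

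Among antioxidant genes, Txnrd1 was most like Ptpre (0.93), then Nfe2l2 (0.91) and Ifrd1 (0.90), and Srxn1 was most like Pkm (0.89), then Txn1 and Tuba1c (0.88 each). Sod2 was nearest to Csf3 (0.83), Atp6v1e1 (0.81) and Zeb2 (0.80), and Gclm to Anxa3, Crybg3 (0.75 each) and Pde8a (0.74). Within the 9 genes, Ncf1 and Ncf4 ran together (0.86) and Txnrd1 and Srxn1 did (0.84). The membrane subunits Cybb and Cyba had 0.70 with each other but 0.12 and 0.11 with Ncf1.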

How the data were processed

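Cardiac CD45+ cells were captured with Chromium Single Cell 3′ v3 chemistry, per the labels' protocols. The authors deposited raw UMI counts per gene and barcode from Cell Ranger 5.0.0, per the file headers; the genome was mm10 and STAR was among the tools, per the submitters' processing notes. The gene annotation, any correction for free RNA and any earlier removal of doublets are not given in the sources used here. Whether the counting used strand is likewise not given, so reads of Ncf1, Cyba and Gclm cannot be told apart from those of genes whose exons overlap them (Gtf2ird2, Gm20388, Gm17494, Gm6061). The library labelled as ischemia-reperfusion with no mention of splenectomy was taken as sham, the only other group of the design.

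Cells with at least 200 genes and at most 20% mitochondrial UMIs were kept, and 200 splenectomy and 302 sham barcodes were dropped as doublets, those ranked highest by Scrublet up to a rate of 8 per 1000 for every 1000 cells in a library. Counts scaled to 10000 per cell and log-transformed gave 2000 variable genes, without the 9 genes, the pathway lists, or mitochondrial and ribosomal genes. From these came 30 components, 15 neighbours and Leiden clusters at resolution 1.0 (scanpy 1.11.5, leidenalg 0.10.2, numpy 2.4.6, scipy 1.17.1). Clusters were named from marker lists of 20 types, and 344 splenectomy and 407 sham cells stayed unnamed. UMIs were summed per class and library and divided by the class total. With 1 library a group no model was fitted and no p-value computed; edgeR 4.0.16 supplied only the TMM factors of an alternative scaling. Intervals are at 95% and cover counting error only; a count of 0 allows up to 3 counts. The ratio and its interval were tested on simulated data. The simulated counts were Poisson, as the interval assumes, so this checks the calculation and not the spread of real cells.

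The 9 genes and all lists were chosen with earlier results of these data known. Besides the 9 genes, the text names at most the 2 highest and 2 lowest genes of each pathway list and large class past 1.5-fold with at least 50 UMIs, genes of these pathways fixed by name (Rac1, Cybc1, Hvcn1, Nfe2l2, Keap1, Hmox1, Gclc, Nqo1, Slc7a11, Prdx1, Txn1, Sod1, Cat), and the 3 nearest genes by Pearson correlation among those with at least 1000 UMIs; 1 gene that the rule names is not reported here. The promoter letters were chosen after the windows had been seen, and 2 of 17 alternatives after the data had been seen.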

Additional observations from a re-analysis of the deposited data

Results flagged for a closer look

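In B cell-like cells Cybb had a log2 ratio (splenectomy over sham) of -0.99, whereas it was above 0 in monocyte-like (0.14), nonclassical monocyte-like (0.30), macrophage-like (0.43) and conventional dendritic cell-like cells (0.30), with counting intervals that do not reach 0 on either side. In endothelial cell-like cells Cyba was at -0.85, against 0.28 in neutrophil-like and 0.07 in monocyte-like cells; it was also below 0 in T cell-like (-0.52) and nonclassical monocyte-like cells (-0.13). With 1 library a group, none of these differences between classes was tested.

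Cells of the 3 unnamed clusters, which enter none of the comparisons, also carried the genes. There Cybb had 371 CPM in splenectomy and 139 CPM in sham cells (1.42), Ncf1 170 and 94 UMIs (0.84), Sod2 289.8 and 112 CPM (1.37) and Gclm 58.9 and 22.4 CPM (1.40). The smallest of these clusters, led by Prg4, Alox15 and Cd5l, held 15 splenectomy and 3 sham cells and 387 and 28 of the 485 and 180 Cybb UMIs. In the dividing cells of the cluster led by Pclaf and Birc5 (18 and 50 cells) Cybb was at -0.01 and Sod2 at 0.76 (0.34 to 1.19), and in the cluster of low depth led by Gm26917 (311 and 354 cells) they were at -0.51 (-1.24 to 0.20) and 0.23 (-0.42 to 0.89).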

How the results depend on the processing

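Over 17 alternatives and 27 combinations of gene and large class, 376 of 459 ratios stayed within the counting interval and 83 moved beyond it. The alternatives that change only the UMI minimum cannot move a ratio. They are included here among the ratios that stayed, and in the counts of alternatives below. Signs of small ratios changed: Cybb and Ncf4 in monocyte-like cells were above 0 in 15 and 13 of 17, Cyba in macrophage-like cells in 12 and Srxn1 in neutrophil-like cells in 5. The 4 antioxidant genes were above 0 in 68 of 68 values in monocyte-like, 68 of 68 in macrophage-like and 56 of 68 in neutrophil-like cells. With the libraries clustered apart Sod2 was at 0.93 in monocyte-like and 0.06 in macrophage-like cells; for both classes together it was 0.53 then and 0.54 otherwise. With clusters weighted equally Sod2 was at 0.26 and Cybb at -0.04 in monocyte-like cells, and Cybb in macrophage-like cells ran from 0.14 (no doublet removal) to 0.53. The cause was not tested. Without S100a8 and S100a9 in the class total, Srxn1 in neutrophil-like cells was at 0.02. Other scalings shifted all genes by at most 0.057.

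The number of the 9 genes past 1.5-fold, 2 in monocyte-like cells, was 3 with the libraries clustered apart and 1 at resolution 1.6, at a mitochondrial limit of 10%, with means over cells and with clusters weighted equally. Sod2 there was past 1.5-fold in 10 of 17 alternatives, Gclm in 17 and Srxn1 in 4. With clusters weighted equally the number was 1 in neutrophil-like and 1 in macrophage-like cells, from 0. Over all genes, 623, 619 and 405 were past 1.5-fold in neutrophil-, monocyte- and macrophage-like cells. Without a minimum of UMIs these were 5769, 4539 and 4454, and with a minimum of 200 UMIs 243, 302 and 182, since fewer or more genes enter. Thinning to 2000 UMIs gave 395 in monocyte-like and 253 in macrophage-like cells, clustering apart 1127 in monocyte-like cells, and equal weights 757 in macrophage-like cells. No paired analysis was possible because each group is 1 library, and for the same reason no replicate could be left out. Depth limits the rarer classes: of the 9 genes, 4 in B cell-like and 2 in T cell-like cells had 50 UMIs in either library.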
